A study of Homo sapiens with 14 samples.

Results

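The genes for the subunits of RNA polymerases I, II and III were taken as the protein-coding genes of GENCODE release 44 (hg38, autosomes and X) whose symbols start with POLR1, POLR2 or POLR3. There were 33 such genes among 19962 protein-coding genes, namely 8 POLR1, 15 POLR2 and 10 POLR3 genes. Their promoter peaks are the ChIP-seq peaks of an anti-ZNF143 antibody whose centre lies from 2 kb upstream to 1 kb downstream of any of their annotated transcription start sites (TSSs). The data come from HEK293T, an established human embryonic kidney line, in a derivative whose ZNF143 carries an FKBP12 F36V degron and an HA tag. All samples used here therefore carry the tagged protein, and no untagged parental cells were analysed here. The first group comprised 4 untreated samples, and the second comprised 4 samples given 0.5 µM dTAG-V1 for 30 min, a degrader that directs the tagged protein to degradation. Both groups were immunoprecipitated with the Proteintech antibody, a polyclonal antibody raised against ZNF143. The design addresses whether this antibody, besides ZNF143, also recognises CTCF, by asking which of its signal is still there once ZNF143 has been depleted. The peaks are therefore named here after the antibody or the list and not as sites of ZNF143.

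The authors deposited 1 list of peaks per group, with 20429 peaks for untreated cells and 35287 for dTAG-V1-treated cells. Neither list holds a value for a single sample, so that a difference between the groups cannot be set against a spread between replicates and no test was made. The depth behind the lists is unknown. By the study's methods, untreated peaks were those called in each of the 4 replicates, whereas a call in any of the 4 dTAG-V1 replicates sufficed, so that entry into the second list was easier. The peak names in the first list mention DMSO, whereas the labels say untreated. Scores and fold enrichments are on the scale of their own list. Peaks are therefore described by their rank or percentile within a list, with 100 for the highest score.

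RNA polymerase I makes the large ribosomal RNA precursor, RNA polymerase II makes messenger RNAs and most small nuclear RNAs, and RNA polymerase III makes transfer RNAs, 5S ribosomal RNA and other short RNAs. Each enzyme has its own large catalytic subunits. A pair of subunits is held in common by polymerases I and III, and 5 subunits are held in common by all 3 enzymes. The subunit genes themselves are transcribed by RNA polymerase II. ZNF143 is a zinc finger protein that binds promoters through long motifs called SBS1 and SBS2. SBS2 starts with ACTACA and continues into TTCCCAG, and SBS1 starts at the latter stretch. CTCF is another zinc finger protein, best known for its binding at insulators and chromatin loop anchors. Its motif was searched alongside because of this question. The 6 CTCF samples of the series were not analysed here.

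The sequences below carry the best SBS hits in the 5 highest-scoring untreated subunit genes, since these are the sites on which the strongest peaks of the family are centred or which they contain. Each run shows 30 bases of hg38, 5′ to 3′ on the strand of the hit, with the hit in capitals.
POLR1G upstream peak, SBS2, chr19:45405487-45405505, plus strand: tttggACTACAACCCCCAGCAGCCtccgcg
POLR2E, SBS2, chr19:1095566-1095584, minus strand: cggaaACTACAACTCCCGAGAGGCtgtgcg
POLR1A, SBS2, chr2:86105626-86105644, minus strand: cctaaACTACGATTCCCAGAAGCGcttttg
POLR1A, SBS1, chr2:86106218-86106235, plus strand: cacgctTTCCCAACATGCTCTGCAgagaaa
POLR1B, SBS2, chr2:112542379-112542397, plus strand: agggaACTACATTTCCCAGCAGGCtgcgga
POLR2B, SBS1, chr4:56978861-56978878, minus strand: ccgacgTTCCCAGAATACCACGCGtctcac
The word ACTACA stands in full in the POLR1G, POLR2E and POLR1B sites, and the POLR1A SBS2 site departs from it. The SBS2 matrix was itself learned from a starting word that opens with ACTACA. For POLR1A, SBS1 gave the highest motif score but lies 622 bp from the peak summit, whereas the SBS2 hit shown lies 30 bp from it. The other sites lie 6 to 25 bp from the untreated summits.

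In untreated cells, 23 of the 33 subunit genes had a promoter peak, or 69.7% (95% Wilson interval 52.7 to 82.6). Across all protein-coding genes, the share was 40.6%. In the dTAG-V1 list, 27 of the 33 had a promoter peak (81.8%, 65.6 to 91.4), beside 48.3% of all protein-coding genes. The intervals treat genes as independent and cover counting error only. All 23 genes with an untreated peak had an overlapping peak in the dTAG-V1 list. Overlapping peaks in both lists were thus found for 69.7% of the 33 subunit genes, beside 35.9% of all 19962 protein-coding genes. No subunit gene had a promoter peak in the untreated list only, with a background of 3.20%. The remaining 4 genes with a peak, POLR2F, POLR2L, POLR2M and POLR3GL, had one in the dTAG-V1 list only (12.1%), close to the 11.0% of all protein-coding genes. With peaks of a −log10 q-value of at least 5, genes found only with dTAG-V1 were reduced to 2, beside 9.89% of all protein-coding genes, namely POLR2F and POLR1D, the latter through the loss of its weak untreated peak.

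All 8 POLR1 genes had an untreated promoter peak (interval 67.6 to 100%), as did 8 of 10 POLR3 genes (80.0%, 49.0 to 94.3) and 7 of 15 POLR2 genes (46.7%, 24.8 to 69.9), the last close to the 40.6% of all protein-coding genes. With dTAG-V1, the counts were 8 of 8, 9 of 10 and 10 of 15. The intervals of the families overlap. Divided by the enzymes that hold each subunit, an untreated peak was found for 6 of 6 genes of polymerase I alone, 2 of 2 of polymerases I and III, 8 of 10 of polymerase III alone, 5 of 10 of polymerase II alone and 2 of 5 of the subunits common to all 3.

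**Figure D1:**
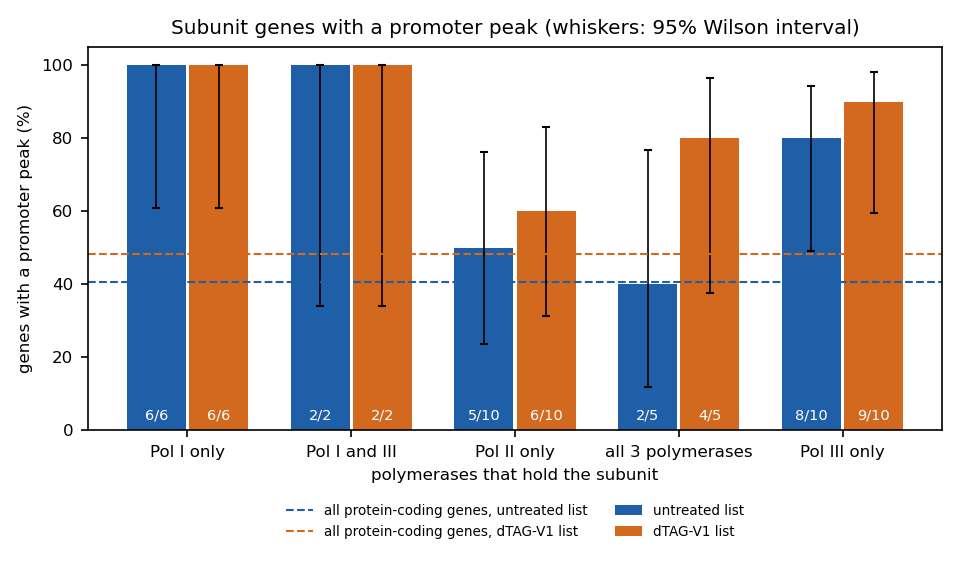
Percentage of subunit genes with a promoter peak (y axis) by the polymerases that hold the subunit (x axis), for the untreated list (blue) and the dTAG-V1 list (orange). Whiskers are 95% Wilson intervals, white numbers are counts of genes, and dashed lines mark all protein-coding genes (40.6% and 48.3%). The 8 genes of polymerase I and of polymerases I and III stand at 100% in both lists, and the lowest share is 2 of 5 for the subunits of all 3 enzymes in the untreated list.

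The peaks of the family spanned nearly the whole range of scores. The 25 untreated peaks of the 23 genes had a median score percentile of 78.1 (quartiles 54.8 and 90.1), and the 7702 promoter peaks of all protein-coding genes had a median of 62.2. Of these 25 peaks, 17 lay above that median, and 7 peaks (28.0%) lay in the top decile of the list, beside 20.6% of all promoter peaks. The 30 peaks in the dTAG-V1 list had a median percentile of 80.8, and all 10296 promoter peaks of that list had 52.8. Median widths were 510 bp and 490 bp for subunit and all promoter peaks in untreated cells, and 740 bp and 505 bp with dTAG-V1. Among the 23 genes with peaks in both lists, 21 (91.3%) had a larger summed peak width in the dTAG-V1 list, beside 73.6% of the 7127 protein-coding genes with a promoter peak in each list and an overlap between the lists.

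**Figure D2:**
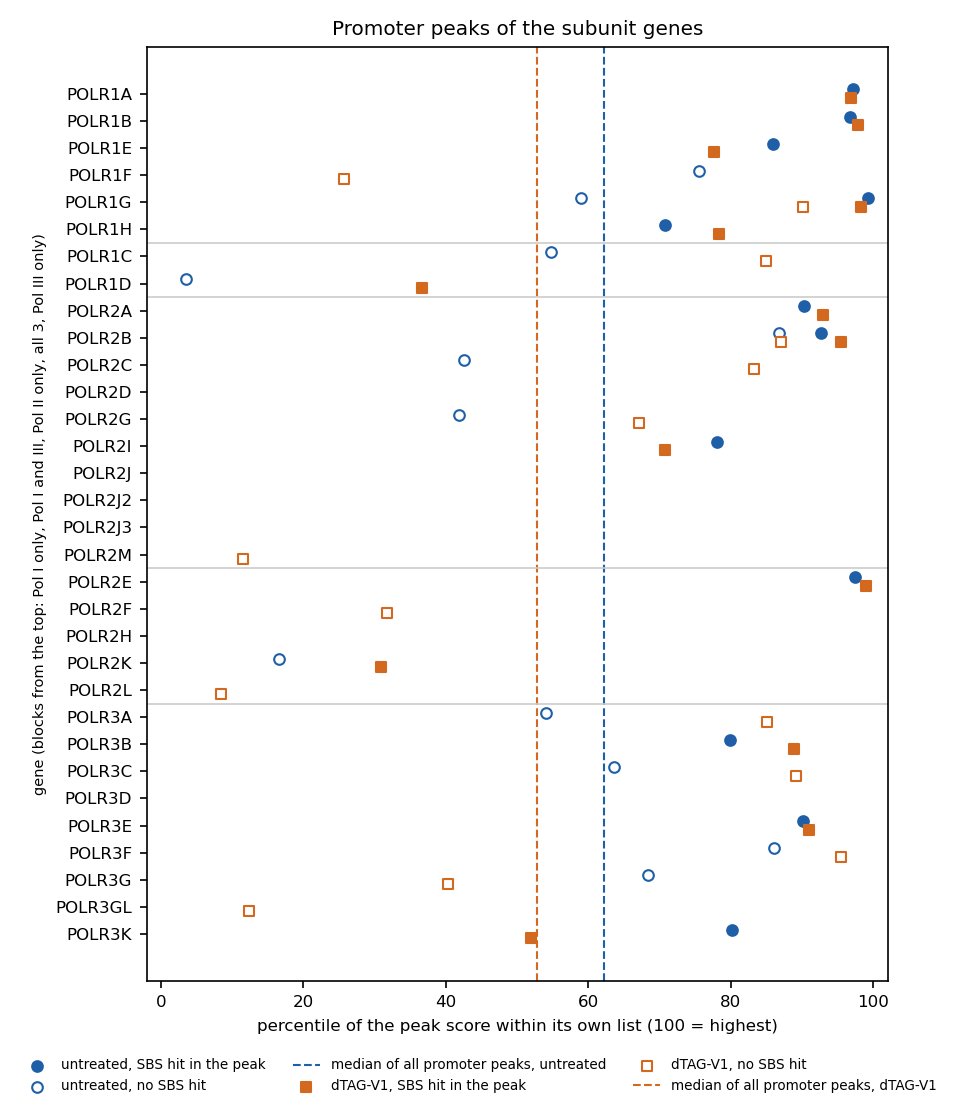
Score percentile of each promoter peak within its own list (x axis, 100 is the highest) for 32 of the 33 subunit genes (y axis), with untreated peaks as blue circles and dTAG-V1 peaks as orange squares, filled where the peak holds an SBS hit. Dashed lines mark the medians of all promoter peaks (62.2 untreated, 52.8 dTAG-V1), and 17 of the 24 untreated peaks drawn lie to the right of theirs.

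The 4 largest untreated peaks belonged to the polymerase I genes POLR1G, POLR1A and POLR1B and to the shared subunit POLR2E. Of the 7 untreated peaks of the 6 genes specific to polymerase I, the median percentile was 85.9, and all lay between 59.0 and 99.3. The highest stood in the window of POLR1G (ENSG00000117877), whose product is an associated factor of polymerase I. It spans chr19:45405021-45405871 and had a score of 119443, rank 142, a 29.6-fold enrichment and a −log10 q-value of 11900. Its centre lies 1198 bp upstream of the nearest POLR1G TSS and its summit inside PPP1R13L, the divergent neighbour, at 449 bp from a PPP1R13L TSS. A second POLR1G peak, chr19:45406371-45406592, lies 162 bp upstream of a POLR1G TSS but ranked 8364, with a score of 220. Its enrichment was only 1.58-fold, at percentile 0.00734 of the untreated list by fold, against percentile 59.0 by score. The strong peak is therefore the one further from POLR1G.

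POLR1A (ENSG00000068654), the catalytic subunit of polymerase I, had an untreated peak at chr2:86105383-86106510 with a score of 56398 (rank 591, 23.9-fold, −log10 q-value 5640). The summit lies 281 bp downstream of the canonical TSS, within the transcribed gene and outside its exons. The peak extends over the start of PTCD3 on the other strand, 337 bp away. POLR1B (ENSG00000125630), the second large subunit, had its peak at chr2:112541884-112542687 with a score of 49685 (rank 673, 33.8-fold, −log10 q-value 4970). Its summit lies 71 bp upstream of the canonical TSS. These genes encode the catalytic core of polymerase I, and both remained near the top of the dTAG-V1 list, at ranks 1143 and 725.

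The other polymerase I genes had smaller peaks. POLR1E, a partner of POLR1G, ranked 2878 in untreated cells (12.6-fold), POLR1F, a stalk subunit, ranked 5007 (6.63-fold) and POLR1H, a small zinc-binding subunit, ranked 5962 (5.23-fold). The subunits common to polymerases I and III, which form the assembly core of both enzymes, were lower. POLR1C ranked 9220 (4.07-fold), with the summit in the untranslated region of its divergent neighbour YIPF3. POLR1D ranked 19683, at percentile 3.48 with a score of 33, the lowest untreated peak of the family. The POLR1D summit lies 1293 bp upstream of the canonical TSS, beside an alternative start and 70 bp from a TSS of LNX2.

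Among the polymerase II genes, both large subunits had peaks in the top decile. POLR2A, the catalytic subunit with the long C-terminal repeat domain, ranked 2006 (18.5-fold), with the summit 83 bp upstream of its canonical TSS and 20 bp from a TSS of ZBTB4. POLR2B (ENSG00000047315), the second large subunit, had a peak at chr4:56978603-56979286 with a score of 15030 (rank 1517, 18.4-fold, −log10 q-value 1500) and its summit 16 bp upstream of the canonical TSS. A further peak at chr4:56977534-56977940 ranked 2719 and lies at an alternative start, near NOA1. POLR2I, a small subunit involved in transcript cleavage and fidelity, ranked 4476 (7.43-fold). POLR2C and POLR2G, a core assembly subunit and a stalk subunit, ranked 11688 and 11841 with 3.58-fold and 3.44-fold enrichment.

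Of the 5 subunits of all 3 enzymes, 2 had an untreated peak, at percentiles 97.4 and 16.6. POLR2E (ENSG00000099817) had the second highest peak of the family, chr19:1095340-1095839, with a score of 60643 (rank 537, 35.4-fold, −log10 q-value 6060) and its summit 175 bp upstream of the canonical TSS. In the dTAG-V1 list it was the highest of the family, at rank 388. POLR2K ranked 17009 in untreated cells (2.65-fold). POLR2F and POLR2L had peaks with dTAG-V1 only, and POLR2H had none.

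Of the polymerase III genes, POLR3E ranked highest in untreated cells (rank 2031, 17.9-fold), followed by POLR3F (rank 2868, 13.6-fold), and these are peripheral subunits of modules that assist initiation and termination. The second large subunit POLR3B ranked 4131 (8.25-fold), whereas the catalytic subunit POLR3A ranked 9368 (3.67-fold). POLR3K, involved in transcript cleavage and termination, ranked 4052 (7.41-fold), and POLR3C ranked 7433 (4.65-fold). The paralogues POLR3G and POLR3GL, which occupy the same place in alternative forms of the enzyme, differed in the lists. POLR3G had a peak in both, at rank 6474 untreated (4.65-fold) and 21010 with dTAG-V1 (2.83-fold). POLR3GL had one with dTAG-V1 only.

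The 4 genes with a peak in the dTAG-V1 list only had low scores there. POLR2F, chr22:37953394-37954102, had a score of 73 (rank 24029, 2.76-fold, −log10 q-value 7.35). POLR3GL, chr1:145964356-145965396, had a score of 43 (rank 30820, 2.1-fold, −log10 q-value 4.38), POLR2M, whose product associates with polymerase II, chr15:57706464-57706722, a score of 42 (rank 30997, 2.51-fold, −log10 q-value 4.28) and POLR2L, chr11:841587-841903, a score of 38 (rank 32084, 2.44-fold, −log10 q-value 3.88). Their percentiles run from 8.48 to 31.7, and the lowest −log10 q-value of either list is 2.01. The POLR2L peak lies 784 bp downstream of its TSS, the only one of these that is lost with a window of 500 bp on each side.

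No promoter peak was found for POLR2D, POLR2H, POLR2J, POLR2J2, POLR2J3 and POLR3D. The nearest untreated peaks lay 14147 bp away for POLR2J, 24666 bp for POLR2H, 28226 bp for POLR2D, 77321 bp for POLR2J2, 101854 bp for POLR2J3 and 102691 bp for POLR3D. With dTAG-V1 the nearest lay between 13953 and 101660 bp away. POLR2J, POLR2J2 and POLR2J3 are near-identical copies on chromosome 7, and the authors kept only reads above a mapping quality limit. The part of that limit in the lack of peaks was not tested. A gene without a peak is one without a called peak at an unknown depth.

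The summits of subunit peaks lay close to transcription starts. In untreated cells, the median distance from the summit to the nearest protein-coding TSS was 32 bp for the 25 subunit peaks and 116 bp for all promoter peaks. The summit was within 100 bp of a TSS in 19 of 25 (76.0%), beside 47.0% of all promoter peaks. With dTAG-V1, the medians were 68.5 bp and 196 bp, and 17 of 30 summits (56.7%) were within 100 bp, beside 34.9%. The nearest TSS could be that of a neighbouring gene. The subunit genes have more annotated starts, with a median of 8 against 5 for all protein-coding genes. The part of this number in the shorter distances was not tested. It also bears on the count of genes with a peak. With the canonical TSS alone, the same numbers of members had a peak (23 and 27), while the background was 35.4% and 41.2%. That count does not measure the distance of the summits.

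**Figure D3:**
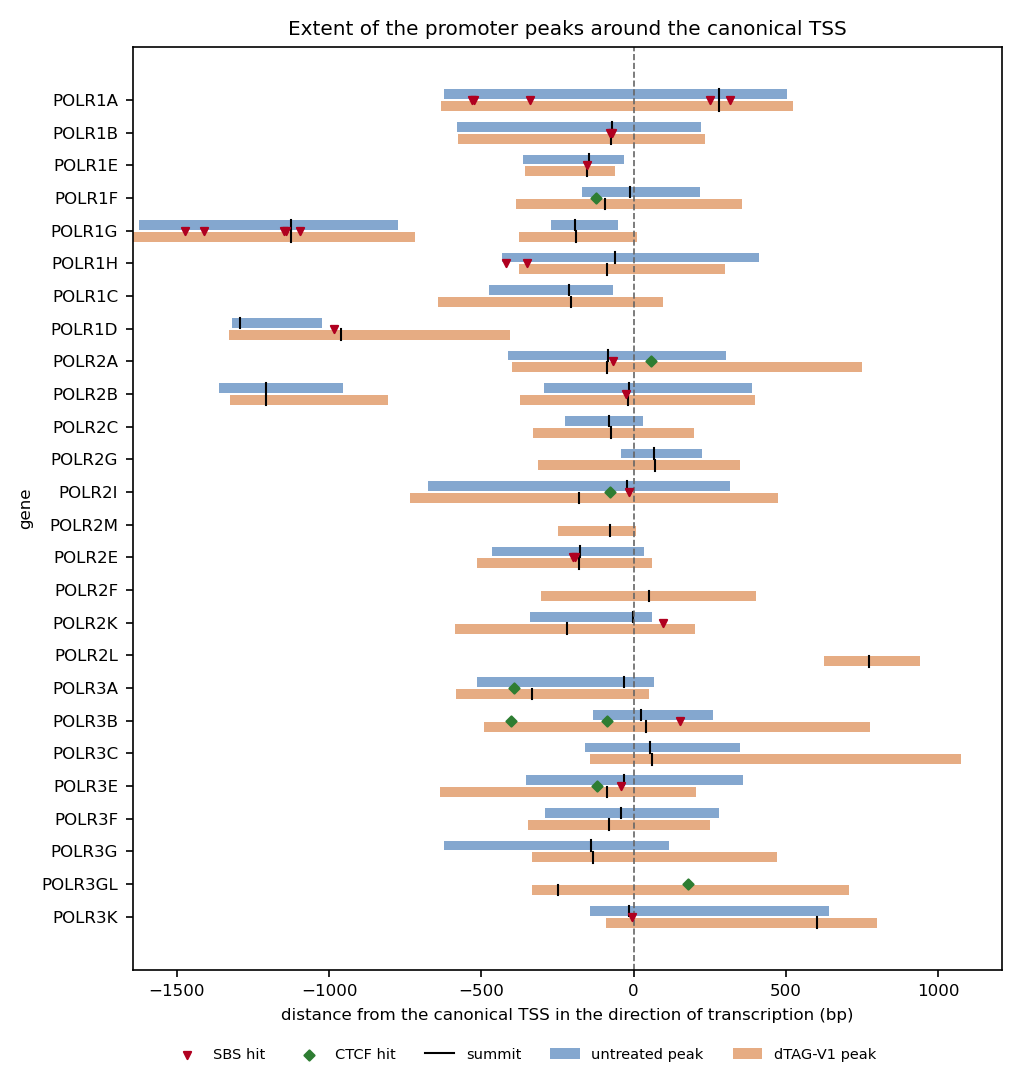
Extent of each promoter peak relative to the canonical TSS in the direction of transcription (x axis, bp) for 26 of the 27 subunit genes with a peak (y axis), with untreated peaks in blue, dTAG-V1 peaks in orange, summits as black lines, and SBS (red triangles) and CTCF (green diamonds) hits found in a peak of either list. Most summits lie near 0, and the peaks of POLR1D, the upstream peaks of POLR1G and POLR2B, and the POLR2L peak lie away from it.

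Divergent promoters were frequent in the family. A TSS of another protein-coding gene on the opposite strand lay within 1000 bp upstream of the canonical TSS in 13 of 33 subunit genes (39.4%), compared with 12.7% of all protein-coding genes. Over all genes, an untreated promoter peak was found for 72.5% of divergent genes and 35.9% of the others. Among the subunit genes, the shares were 9 of 13 (69.2%) and 14 of 20 (70.0%). Thus the coverage of the family was not limited to its divergent genes. The windows of other genes also held 13 of the 25 untreated peaks and 16 of the 30 dTAG-V1 peaks. The same share over all promoter peaks was not computed, so that these counts have no background. When only peaks nearest to a TSS of the member itself were counted, POLR1C, POLR1G, POLR2A and POLR3G lost their untreated peak and 19 genes were left, beside a background of 34.1%.

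SBS hits were found in peaks of 13 subunit genes in untreated cells. Among them were POLR1A, POLR1B, POLR1E, POLR1G, POLR1H, POLR2A, POLR2B, POLR2E, POLR2I, POLR3B, POLR3E and POLR3K. The hits correspond to 13 of 25 peaks (52.0%, interval 33.5 to 70.0), beside 42.8% of all untreated promoter peaks. The order depends on the limits. With hits at p 5e-05, the untreated subunit share was below the 67.9% of all untreated promoter peaks. With hits within 100 bp of the summit, it was above the 35.7% of all. In the dTAG-V1 list, 15 of 30 peaks (50.0%, 33.2 to 66.8) held an SBS hit, beside 29.8%, and the 2 further genes were POLR1D and POLR2K. Their hits lie beyond the ends of their untreated peaks, in the wider dTAG-V1 peaks. With hits at p 5e-05 the dTAG-V1 shares were 63.3% and 55.3%. Subunit peaks in this list were also wider in median (740 bp beside 505 bp), and the part of width in these shares was not tested. In untreated cells, 10 of the 13 peaks (76.9%) had their SBS hit no further than 50 bp from the summit, and for all promoter peaks with a hit this share was 75.5%. The exceptions included POLR1H at 288 bp and POLR3B at 128 bp. With dTAG-V1 the shares within 50 bp were 60.0% and 61.5%, and counting only hits within 100 bp of the summit left an SBS hit in 30.0% of the subunit peaks, beside 21.5% of all.

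The subunit peaks with SBS hits stood high in the untreated list. Their median percentile was 90.1, with POLR1G highest at 99.3, and that of the 12 peaks without a hit was 56.9, from 3.48 to 86.7. Over all untreated promoter peaks, the medians were 87.4 with and 44.6 without an SBS hit, so that the same order holds in the background. POLR3F is the highest-ranking gene without an SBS hit at p 1e-05, at percentile 86.0, and its RefSeq promoter holds the word TTCCCAG. Sites of the 5 further genes whose hits lie within 20 bp of the untreated summit are shown, again with the hit in capitals.
POLR2A, SBS1, chr17:7484290-7484307, minus strand: cttcctTTCCCGCCCTCCCTTGCGctacgg
POLR3E, SBS1, chr16:22297358-22297375, minus strand: tcctctTACCCACAATGCCCCGCCccggtg
POLR1E, SBS2, chr9:37485785-37485803, plus strand: ctggaCCTACAAAACCCAGAGTGCacgcga
POLR2I, SBS1, chr19:36114880-36114897, plus strand: gcagccCTCCCAGCCTTCCGCGCTtgctcc
POLR3K, SBS2, chr16:53604-53622, plus strand: cgcagGCTCCAACTCCCGGCAGCTcccact
These lie 16, 12, 6, 8 and 11 bp from the untreated summits, respectively, and none of them holds the full word TTCCCAG.

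CTCF hits were found in 6 untreated peaks (24.0%, 11.5 to 43.4), those of POLR1F, POLR2A, POLR2I, POLR3A, POLR3B and POLR3E, beside 15.9% of all promoter peaks. With dTAG-V1 there were 7 of 30 (23.3%, 11.8 to 40.9), with POLR3GL added, beside 21.1%. In contrast to SBS hits, none of the 6 untreated CTCF hits lay within 50 bp of the summit, and their median distance was 110 bp. Over all untreated promoter peaks with a CTCF hit, 37.0% lay within 50 bp. With dTAG-V1, 2 of the 7 (28.6%) lay within 50 bp, beside 56.3% over all promoter peaks with a CTCF hit. The share of peaks with a CTCF hit depends on the limits. It was 48.0% of untreated subunit peaks at p 5e-05 (37.2% of all promoter peaks) and 8.0% with hits within 100 bp of the summit (8.85%). Both motifs were found in the untreated peaks of 4 genes, POLR2A, POLR2I, POLR3B and POLR3E, and 10 of the 25 untreated peaks had neither. Of all 7702 untreated promoter peaks, 533 had both and 3711 had neither. The hits in POLR1F and POLR3E are shown because the first is the only hit in its peak and the second shares its peak with SBS1.
POLR1F, CTCF, chr7:19709154-19709167, plus strand: agccctgaCCAGCAGGGGGAACcgcgtttt
POLR3E, CTCF, chr16:22297283-22297296, minus strand: cccgccctGCAGCAGGGGGCGCtgatggca
The POLR1F hit lies 110 bp from the untreated summit and 28 bp from the dTAG-V1 summit, and the POLR3E hit lies 90 and 30 bp from them.

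All 25 untreated subunit peaks overlapped a dTAG-V1 peak, beside 84.2% of all untreated promoter peaks. In the other direction, 25 of 30 dTAG-V1 subunit peaks overlapped an untreated peak, beside 62.6%. Those without overlap included the peaks of the 4 genes named above. To compare places on equal terms, the 6484 untreated promoter peaks that overlap a dTAG-V1 peak were ranked in each list among themselves. For the 25 subunit peaks, the dTAG-V1 percentile minus the untreated percentile had a median of −0.185, with quartiles of −7.16 and 16.7. For all 6484 peaks, the median was 0.386 with quartiles of −7.17 and 9.56.

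Individual genes stood at different places in the lists, in both directions. POLR1F stood at percentile 57.7 among the shared peaks in untreated cells and 10.4 with dTAG-V1, the largest downward difference of the family. POLR3K stood at 63.0 and 31.2, and POLR3G at 51.1 and 21.2. Conversely, POLR2C stood at 30.2 and 57.9, and the peak of POLR1G next to its TSS at 42.9 and 67.2. Of the 5 highest untreated peaks of different genes, those of POLR1B (90.6 and 89.8), POLR2E (92.3 and 94.4) and POLR2B (80.5 and 80.0) differed least, and those of POLR1A (91.7 and 84.5) and POLR1G (97.9 and 91.1) stood lower with dTAG-V1. The median absolute difference was 13.7 percentile points for the subunit peaks, beside 8.33 over all shared promoter peaks. For peaks with an SBS hit it was 6.8 beside 3.92, and for those without 19.2 beside 12.1. A higher percentile with dTAG-V1 was seen for 3 of 13 peaks with an SBS hit (23.1%) and 9 of 12 without (75.0%). Over all shared promoter peaks, it was 41.1% with and 60.3% without. Without replicate values, these differences could not be set against the spread between samples.

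**Figure D4:**
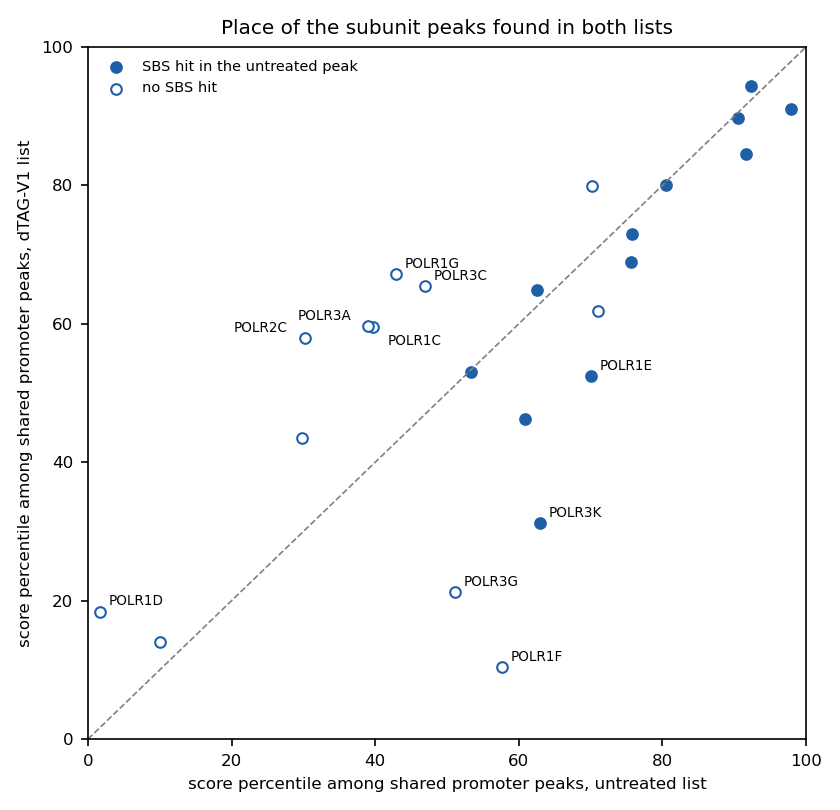
Score percentile of 24 of the 25 subunit peaks among the 6484 promoter peaks found in both lists, untreated (x axis) against dTAG-V1 (y axis). Filled points hold an SBS hit in the untreated peak, names mark differences above 15 percentile points, and the dashed line marks equal place. Of the 12 filled points, 10 lie below the line, and of the 12 open points 9 lie above it.

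The promoter sequences of RefSeq (GRCh38.p14, from 250 bases before to 50 after each start) were searched on both strands for short words. Promoters were found for 24 of the 33 genes, 30 promoters in all, beside 22198 promoters of protein-coding genes. Those not matched included POLR1E, POLR2G, POLR2I, POLR2J, POLR2J3, POLR2K, POLR3D and POLR3G. The first part of SBS2, ACTACA, was in 2 subunit promoters (6.67%, POLR1B and POLR2E), beside 7.93% of all. TTCCCAG was in 4 (13.3%, of POLR1B, POLR2B and POLR3F), beside 10.8%. The ETS word CCGGAAG was in 11 (36.7%), beside 12.8%, and its 9 genes were POLR1B, POLR1C, POLR2C, POLR2D, POLR2F, POLR2J2, POLR2M, POLR3A and POLR3C. The NRF1 word GCGCATGC was in 5 (16.7%), beside 3.74%, in POLR2F, POLR2H, POLR2J2 and POLR3B. Of the 10 genes without an untreated peak, 7 had a RefSeq promoter, and 5 of these, POLR2D, POLR2F, POLR2H, POLR2J2 and POLR2M, held the ETS or the NRF1 word. Of the 23 genes with one, 17 had a RefSeq promoter and 6 held either word. The share of all promoters with either word was not computed, so that these counts have no background. Both words stood above their backgrounds in these same promoters, and the difference between the 2 sets of genes was not tested.

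The other words were the SP1 word GGGCGG in 21 subunit promoters (70.0%, beside 56.3%), the NF-Y word CCAAT in 6 of 30 (beside 34.7% of all), the TATA word TATAAA in 1 (3.33%, beside 9.47%), that of POLR2M, and the YY1 word AAGATGG in 1 (3.33%, beside 6.04%), that of POLR1C. ACTACA and TTCCCAG are neighbouring parts of 1 motif and were counted separately. With the learned matrices, an SBS hit was in 8 of 30 subunit promoters (26.7%), beside 18.2% of all, and a CTCF hit in 3 (10.0%), beside 9.09%. One of the SBS hits belongs to POLR2L, which had no untreated peak. A word or hit is a match of letters and not a measured site.

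The peaks nearest to the limits of the window were as follows. In untreated cells, the first one outside was a peak 1086 bp downstream of the POLR3K TSS, chr16:50948-51164 (score 218). With dTAG-V1, the closest inside was the POLR2L peak at 784 bp (score 38), and the first outside was a peak 1023 bp downstream of a POLR3E TSS, chr16:22298237-22298718 (score 128). POLR3K and POLR3E had other peaks inside the window, so that no gene was gained or lost at the limit.

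Genes for other parts of the transcription machinery were counted in the same way. Of 50 genes for initiation, regulatory and assembly factors, 39 (78.0%) had an untreated promoter peak and 48 (96.0%) had one with dTAG-V1, beside 40.6% and 48.3% of all protein-coding genes. For polymerase I factors, the counts were 5 of 7 and 7 of 7. For the general factors of polymerase II they were 14 of 18 and 17 of 18, and for polymerase III factors 13 of 16 and 15 of 16. Factors that assemble polymerases in the cytoplasm had peaks in 6 of 8 and 8 of 8 cases, and POLRMT, the mitochondrial RNA polymerase, had one in both lists. GTF2H2 and SNAPC1 had none in either list.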

How the data were processed

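ChIP-seq with the Proteintech antibody was analysed from 4 untreated and 4 dTAG-V1 samples, of 14 in the series. According to the methods, the authors mapped read pairs with bwa mem to hg38, kept proper pairs above a mapping quality limit, marked duplicates for removal in Picard and used MACS2 in its narrow mode, after which peaks off the canonical chromosomes or in blacklisted regions were dropped, with no control named for this call. In the deposited lists, the score is the integer MACS2 wrote as 10 times the −log10 q-value. The deposited −log10 q-value and the fold enrichment, a ratio at the summit over local background, are also the authors'. Replicates were combined into 1 list per group before deposit, so that depth and replicate error are unknown. The lists contain no further sample columns.

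Peaks were assigned to GENCODE release 44 TSSs by their centre, from 2000 bp upstream to 1000 bp downstream, with genes counted by symbol. Lists were overlapped at 1 bp or more. Matrices for CTCF, SBS1 and SBS2 (14, 18 and 19 bp) were learned from merged peaks on odd-numbered autosomes without the subunit peaks, over 10 rounds, and hits were taken at p 1e-05. Learning started from a set consensus word for each motif and was not a search for unknown motifs. The procedure was tested on simulated data. Shares have 95% Wilson intervals. The values of 1 member are not reported here by name, and it stays in the counts. Members were named, with full values for the 5 highest in the untreated list and for those in 1 list only. Members, lists and alternatives were chosen with earlier results of these data known. Alternatives were another window, canonical TSSs, a stricter q-value, nearest-gene assignment, 50% overlap, hits at p 5e-05 or within 100 bp of the summit, and ranking by fold. The tools were samtools 1.23.1 and Python 3.11.15 with pysam 0.24.0, statsmodels 0.14.6, numba 0.67.0, pandas 2.3.3, matplotlib 3.10.9, scipy 1.17.1 and numpy 2.4.6.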

Additional observations from a re-analysis of the deposited data

How the results depend on the processing

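Of 69 recomputed values, 63 stayed within 1.5 times the count or within the 95% interval of the share or median as reported. The intervals of the medians are not printed here. The others were as follows. With a −log10 q-value of at least 5, 2 subunit genes had a peak in the dTAG-V1 list only. With hits at p 5e-05, a CTCF hit was in 48.0% of untreated and 46.7% of dTAG-V1 subunit peaks, beside 37.2% and 41.8% of all promoter peaks. With hits within 100 bp of the summit, the CTCF shares were 8.0% and 10.0%, beside 8.85% and 14.6% of all promoter peaks. The SBS share with dTAG-V1 was then 30.0%, beside 21.5%. The 23 genes with overlapping peaks in both lists became 18 with a reciprocal overlap of 50%. The share of all protein-coding genes was not computed at that overlap, so that this drop has no background beside it. Replicates could not be left out in turn, because each list is deposited as 1 combined set of peaks. No paired analysis was possible because peaks of the 4 samples of a group were deposited together. The depth of the lists is unknown, so that a weak peak may pass the threshold in 1 group alone without a difference in binding.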
